A study of Rattus norvegicus with 12 samples.

Results

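The genes described here are 10 members of the Notch pathway, taken by name from the 33294 rows of the count table: the receptors Notch1, Notch2, Notch3 and Notch4, the ligands Jag1 and Jag2, and the target genes Hes1, Hey1, Hey2 and Heyl. All 10 had counts in these cells, and all 10 passed the filter on low counts in each comparison with the control, Heyl against P and Jag2 against the knockdowns through D1 alone. The 12 libraries were made from poly(A) RNA of PAC1 cells, a rat pulmonary artery smooth muscle cell line, in 4 groups of 3. D1 was the differentiated culture (PAC1-D) given control siRNA, and P was the proliferative culture (PAC1-P) given the same control siRNA. RBPMS KD1 was PAC1-D given siRNA against Rbpms, an RNA-binding protein of smooth muscle, and MBNL KD was PAC1-D given siRNAs against both Mbnl1 and Mbnl2, which encode muscleblind-like splicing regulators. Per the labels, every group received 90 pmol of siRNA per transfection, the transfection was repeated after 24 h, and cells were assessed 48 h after the repeat. The study's methods describe a longer schedule, so the exact time of harvest is uncertain. PAC1-D cells were passaged 1 time a week at 1:10 and PAC1-P cells 2 times a week at 1:20, both with 10% serum, so that P and D1 differ in passage regime and state together. All libraries come from 1 cell line, no label ties the replicates to separate animals, and p-values therefore measure the spread between these cultures.

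Notch receptors are cleaved by furin on the way to the cell surface and bind Jagged or Delta-like ligands on the neighbouring cell. Binding allows ADAM proteases and then the gamma-secretase complex to release the intracellular domain, which joins the DNA-binding protein RBPJ and a Mastermind coactivator to switch on Hes and Hey genes, a family of transcriptional repressors. In arteries NOTCH3 is the receptor best known for smooth muscle, JAG1 is a ligand of both endothelium and smooth muscle, and the pathway is known for its role in smooth muscle maturation.

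RBPJ recognises a short sequence, and the promoter windows of 3 target genes are shown for where its letters lie. RefSeq windows of the GRCr8 assembly, from 250 bases before to 50 bases after the annotated start, were found for 9 of the 10 genes (all but Hey1), with 2 windows for Jag2. GTGGGAA and its 6-base core TGGGAA were searched on both strands, and every match to the longer motif also counts as a match to the core. Capitals mark the matches. The Hes1 window (chr11:84212996-84213295, minus strand of the assembly) and the Hey2 window (chr1:28640850-28641149, plus strand) are the windows with a match to the longer motif, and the Heyl window (chr5:140793021-140793320, plus strand) is the target gene window with none.
Hes1: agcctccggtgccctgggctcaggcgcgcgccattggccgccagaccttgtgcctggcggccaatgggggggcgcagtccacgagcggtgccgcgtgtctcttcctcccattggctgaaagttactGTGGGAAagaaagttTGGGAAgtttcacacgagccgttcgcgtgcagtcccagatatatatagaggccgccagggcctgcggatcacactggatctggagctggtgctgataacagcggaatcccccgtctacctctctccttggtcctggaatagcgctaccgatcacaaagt
Hey2: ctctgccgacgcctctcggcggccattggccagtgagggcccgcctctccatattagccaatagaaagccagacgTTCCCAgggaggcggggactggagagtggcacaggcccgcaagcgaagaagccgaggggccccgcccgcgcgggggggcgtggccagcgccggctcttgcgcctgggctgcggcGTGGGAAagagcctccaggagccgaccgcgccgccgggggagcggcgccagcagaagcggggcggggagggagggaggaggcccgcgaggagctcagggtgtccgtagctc
Heyl: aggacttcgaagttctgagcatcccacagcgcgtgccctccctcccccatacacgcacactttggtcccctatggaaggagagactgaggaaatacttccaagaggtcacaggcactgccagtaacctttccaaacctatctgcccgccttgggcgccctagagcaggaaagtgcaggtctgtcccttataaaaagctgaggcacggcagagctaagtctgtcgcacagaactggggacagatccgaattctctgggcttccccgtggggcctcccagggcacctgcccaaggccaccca
The Hes1 window held GTGGGAA from base -124 to -118 relative to the start and a further core from -109 to -104 on the same strand. The Hey2 window held GTGGGAA from -61 to -55 and a core on the opposite strand, printed as TTCCCA, from -175 to -170. Among all 33469 RefSeq windows of the same length, 6.29% held GTGGGAA and 25.7% held the core, and 3.85% held the core at least 2 times. The core alone was also found in the Notch3 window, from 43 to 48 after the start, and at 2 positions of the opposite strand in the Notch4 window. No match was found in the windows of Notch1, Notch2, Jag1, Jag2 or Heyl, which says only that these letters are not in those windows.

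**Figure D1:**
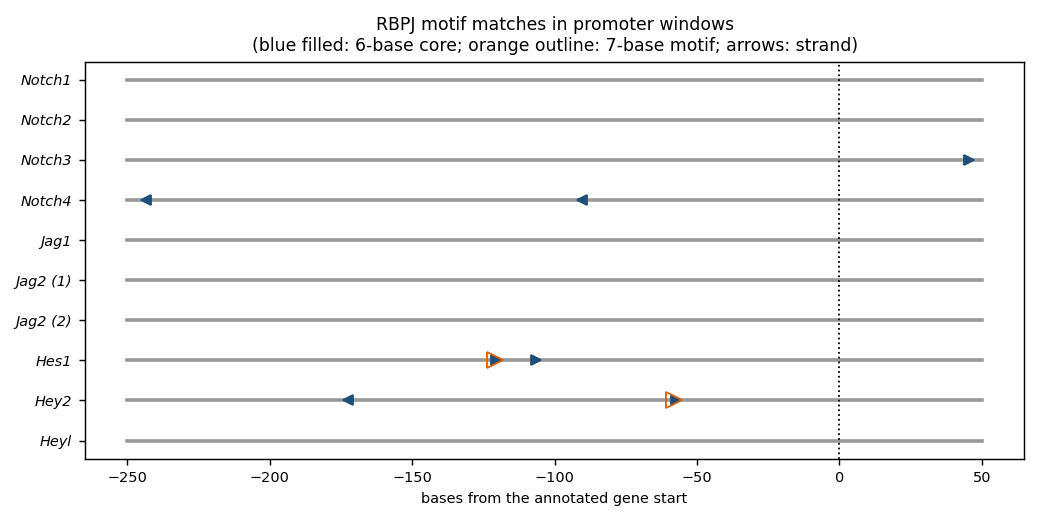
Positions of TGGGAA (blue) and GTGGGAA (orange outline) in the 10 promoter windows of 9 Notch genes, in bases from the annotated start (dotted line), with arrows for the strand. Hes1 and Hey2 hold the longer motif at -124 and -61.

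Total counts ran from 80842635 to 90771289 per library, so 3 counts, taken as the limit of detection, stand for 0.0331 to 0.0371 CPM, the count scaled by the library total. MBNL KD replicate 3 had the lowest total and stood furthest from its own group. Each siRNA target was lower in its own knockdown: Rbpms fell 3.99-fold in RBPMS KD1, and Mbnl1 and Mbnl2 fell 4.20-fold and 3.37-fold in MBNL KD. Rbpms was also 15.9-fold lower in P, and in MBNL KD it was 1.20-fold lower. The 5 markers of smooth muscle were present in every library, and their summed level was 755503 to 793225 scaled counts in D1. It was 10671 to 11347 in P, 611634 to 619595 in MBNL KD and 381002 to 395293 in RBPMS KD1. The sum is mostly Acta2 and Tagln: all 5 markers averaged below D1 in P and in RBPMS KD1, but in MBNL KD Acta2 (84.2% of the D1 mean), Tagln (73.7%) and Myocd (69.0%) were below D1 while Myh11 (145%) and Cnn1 (108%) were above it. Values below are counts scaled to a common library size by TMM factors, unless called counts. Counts grow with transcript length, which was not used here, so levels are compared between groups for 1 gene and not between genes. The marker sums are the exception, and they weight each gene by its counts. A gene is described as higher or lower, or as having risen or fallen, at an adjusted p under 0.05 (edgeR, 3 libraries against 3), and as called when its log2 fold change was also beyond 1.

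The largest differences of the Notch genes lay between the culture states. In P, 5 of the 10 genes were called lower than in D1 (Notch1, Notch3, Jag1, Hey2 and Heyl) and 1, Hes1, was called higher. Of all 16814 genes tested, 27.6% were called, 11.2% lower and 16.4% higher. At the adjusted p alone, 8 of the 10 genes differed, 2 higher and 6 lower, against 77.9% of all genes tested (40.4% higher and 37.6% lower). The libraries of 8 genes did not overlap between P and D1, against 79.1% of all genes, so that the number of genes that moved at all is near the background. In RBPMS KD1, 1 of the 10 genes was called (Jag2, lower) against a background of 4.68%, or 1.62% for lower calls. In the same comparison 7 passed the adjusted p, 3 higher and 4 lower, against 59.1% (29.5% in each direction), and 7 did not overlap D1, against 63.4%. In MBNL KD, 1 gene was called (Jag2, lower) against 10.2%, or 4.14% for lower calls. There 8 passed the adjusted p, 1 higher and 7 lower, against 67.5% (33.8% higher and 33.7% lower), and 8 did not overlap D1, against 70.3%. The median log2 fold change of all genes lay between 0.0043 and 0.02 in these comparisons. The 3 comparisons share the D1 libraries, and their values are given side by side. Because these are bulk libraries, fewer cells that express a gene and less RNA per cell cannot be told apart.

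**Figure D2:**
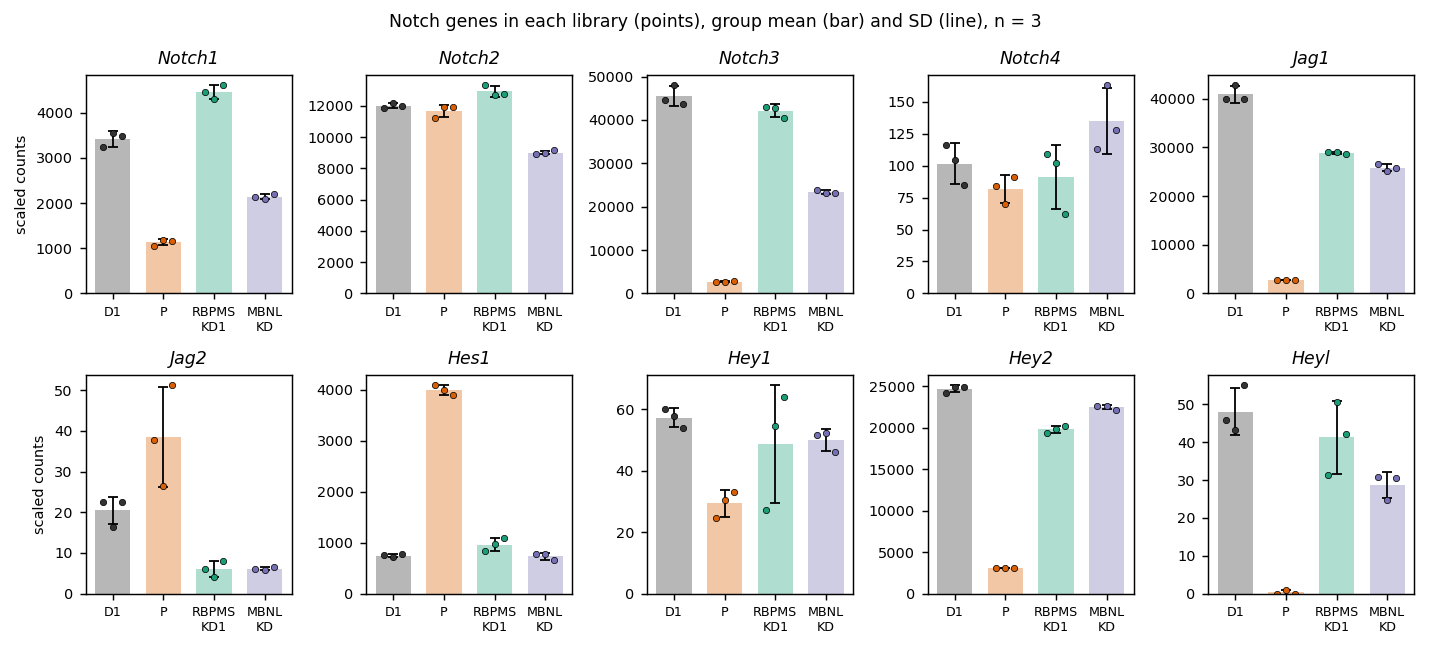
Scaled counts of the 10 genes in each library (points), with the group mean (bar) and SD (line), n = 3, each panel on its own scale from 0. Notch3, Jag1 and Hey2 are far lower in the 3 P libraries than in any other, and Hes1 is far higher.

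Notch3 fell most among the receptors in the proliferative state and, by less, after MBNL knockdown. Its D1 libraries held 44476, 48060 and 43774 scaled counts, and its P libraries 2553, 2667 and 2742. The P mean of 2654 ± 94.9 (SD, n = 3) was 5.84% of that in D1, 45436 ± 2299, and the log2 fold change was -4.10 (SE 0.035, adjusted p = 1.6e-40). The MBNL KD libraries held 23812, 23050 and 23215 scaled counts, below every D1 library. They averaged 51.4% of D1, with a log2 fold change of -0.96 (SE 0.030, adjusted p = 4.3e-22), just inside the fold threshold. The RBPMS KD1 libraries, with 43062, 42826 and 40335 scaled counts, also lay below all D1 libraries, but by 1.08-fold (log2 fold change -0.11, SE 0.031, adjusted p = 0.0031). That small difference did not pass with quantile-normalised counts (adjusted p = 0.40) or limma on the normalised values (adjusted p = 0.57). Over all alternatives the adjusted p ran from 4.3e-05 to 1. This and later ranges take in a test against a log2 fold change of 1, which a small change cannot pass. The order of Notch3 means was D1, RBPMS KD1, MBNL KD and P, and the step from MBNL KD to P was the largest at 8.80-fold.

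Notch1 moved in opposite directions in the knockdowns. The D1 libraries held 3229, 3546 and 3475 scaled counts, the RBPMS KD1 libraries 4456, 4295 and 4612, and the MBNL KD libraries 2140, 2089 and 2193. No group overlapped another. RBPMS KD1 rose to 130% of the D1 mean (log2 fold change 0.38, SE 0.039, adjusted p = 1.2e-09), and MBNL KD fell to 62.7% (log2 fold change -0.67, SE 0.041, adjusted p = 7.8e-15). Compared directly, MBNL KD was 2.09-fold below RBPMS KD1 (log2 fold change -1.06, SE 0.039, adjusted p = 1.6e-20). Notch1 was the 1 gene called among the 9 tested in that comparison, against 11.9% of all genes (6.03% for lower calls), and 7 of the 9 passed the adjusted p, against 69.5%. The call sits at the fold threshold: it was lost with limma on the normalised values of the authors, where the log2 fold change was -0.995, and in a test against a log2 fold change of 1 (adjusted p = 0.24; over all alternatives the adjusted p ran from 6.8e-152 to 0.24). In P the 3 libraries held 1054, 1188 and 1155 scaled counts, the lowest of all groups. The P mean was 33.1% of the D1 mean (log2 fold change -1.60, SE 0.049, adjusted p = 9.4e-25).

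Notch2 was close to level between the culture states. Its means were 12008 ± 149 in D1 and 11691 ± 387 in P (SD, n = 3), the libraries overlapped, and the log2 fold change of -0.04 (SE 0.027) did not pass the test (adjusted p = 0.15). RBPMS KD1 was 1.08-fold above D1 (adjusted p = 0.0010), and MBNL KD, at 9011 ± 113, was 1.33-fold below it (adjusted p = 1.1e-15). The knockdowns differed from each other by a log2 fold change of -0.53 (SE 0.026, adjusted p = 2.4e-17), MBNL KD being lower. Notch4, known mainly from endothelium, was present at 62 to 165 counts per library. In P its log2 fold change was -0.32 (SE 0.20, adjusted p = 0.14), but it was lower with quantile-normalised counts (-0.80, adjusted p = 0.00087) and with limma on the normalised values (-0.56, adjusted p = 0.0046; over all alternatives the adjusted p ran from 0.00087 to 1). It did not pass the test in RBPMS KD1 (adjusted p = 0.54). In MBNL KD it was 1.33-fold higher (log2 fold change 0.41, SE 0.18, adjusted p = 0.041) with libraries that overlapped those of D1. This did not pass under quantile scaling (adjusted p = 0.25), DESeq2 (0.067) or limma on the normalised values (0.36), nor without D1 replicate 2 (0.060), D1 replicate 3 (0.18), MBNL KD replicate 2 (0.28) or MBNL KD replicate 3 (0.055).

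Jag1, a Jagged ligand that is itself known to be induced by Notch in smooth muscle, fell in every comparison with D1. Its D1 libraries held 39915, 42824 and 39899 scaled counts, and the P libraries 2769, 2686 and 2778. The P mean was 6.71% of that in D1, with a log2 fold change of -3.90 (SE 0.032, adjusted p = 5e-41). The RBPMS KD1 libraries, at 29011, 28952 and 28609, and the MBNL KD libraries, at 26550, 25147 and 25797, formed an intermediate pair of groups that overlapped neither D1 nor P. RBPMS KD1 was 1.42-fold below D1 (log2 fold change -0.50, SE 0.027, adjusted p = 2.1e-15) and MBNL KD 1.58-fold below it (log2 fold change -0.66, SE 0.029, adjusted p = 1.9e-18). The direct difference between the knockdowns was small, 1.12-fold with MBNL KD lower (adjusted p = 2.9e-06).

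Jag2, the second Jagged ligand, was measured by few counts and was highest in P. It had 22, 16 and 22 counts in D1, 40, 28 and 54 in P, 6, 4 and 8 in RBPMS KD1, and 6 in each MBNL KD library. P lay above D1 in all libraries (log2 fold change 0.90, SE 0.35, adjusted p = 0.019), and without P replicate 2 the log2 fold change was 1.11 and past the fold threshold. The rise did not pass with quantile-normalised counts (0.31, adjusted p = 0.38), with limma on the normalised values (0.18, adjusted p = 0.24), without D1 replicate 2 (0.77, adjusted p = 0.071) or without P replicate 3 (0.65, adjusted p = 0.15). Both knockdowns lay below D1: the log2 fold change was -1.74 (SE 0.47, adjusted p = 0.0024) in RBPMS KD1 and -1.71 (SE 0.48, adjusted p = 0.0025) in MBNL KD. Jag2 passed the filter in those comparisons through its D1 counts alone. Its counts were even in all 12 libraries, against 4 to 7 of 12 for the other 9 genes, and when all counts were halved it no longer passed the filter. Neither knockdown called Jag2 with limma on the normalised values of the authors, where the log2 fold changes were -0.52 and -0.54, or in a test against a log2 fold change of 1 (adjusted p = 0.99 and 0.34). The normalised values start at 35 for a count of 0 (Heyl in P), which shrinks the fold changes of genes with few counts, in P as well.

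The target genes did not move as a group. Hes1, the target with expression in many cell types, rose in P while Hey2, the best known Hey gene of arteries, fell. Hes1 had 754, 711 and 769 scaled counts in D1 and 4085, 3999 and 3892 in P, a 5.34-fold rise (log2 fold change 2.42, SE 0.046, adjusted p = 1.4e-30). Hey2 had 24217, 24951 and 24962 scaled counts in D1 and 3156, 3121 and 3118 in P, a 7.92-fold fall (log2 fold change -2.99, SE 0.028, adjusted p = 2.4e-39). The promoter windows of both genes hold GTGGGAA, as printed above, while their changes in P had opposite signs.

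After RBPMS knockdown Hes1 and Hey2 again differed in sign, by less. The 3 RBPMS KD1 libraries held 834, 969 and 1088 scaled counts of Hes1, all above D1 but spread more widely, and averaged 129% of D1 (log2 fold change 0.37, SE 0.076, adjusted p = 0.00011). They held 19388, 19825 and 20237 scaled counts of Hey2, all below D1 (log2 fold change -0.32, SE 0.025, adjusted p = 1.2e-11). In MBNL KD, Hes1 overlapped D1, with 776, 769 and 657 scaled counts (log2 fold change -0.02, SE 0.072, adjusted p = 0.85). Hey2 was 1.10-fold below D1 in MBNL KD (adjusted p = 2.5e-05), at 22500 ± 265 (SD, n = 3), a difference that did not pass with quantile-normalised counts (adjusted p = 0.15) or limma on the normalised values (adjusted p = 0.068). This small difference in Hey2 stands beside the 1.94-fold fall of Notch3 in the same libraries.

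Heyl, another Hey repressor, was all but absent from P. It had 45, 42 and 54 counts in D1 and 0, 1 and 0 in P. The scaled ratio of D1 to P was 152, with an exact 95% interval of 26.9 to 6062, and the edgeR test was passed (adjusted p = 5.3e-11). The interval covers counting error only and takes each count as independent, so it is too narrow if mates were counted separately. Heyl passed the filter in every comparison with P through the other group alone. RBPMS KD1, with 31, 50 and 42 counts, overlapped D1 (adjusted p = 0.53), and MBNL KD, with 31, 25 and 28 counts, lay below it (log2 fold change -0.74, SE 0.29, adjusted p = 0.028), which did not pass without D1 replicate 3 (adjusted p = 0.10) or MBNL KD replicate 2 (adjusted p = 0.091). Heyl overlaps a long non-coding RNA in the annotation, and the strand setting of the counting is not stated. Hey1 had 59, 56 and 53 counts in D1 and 26, 32 and 35 in P. Its log2 fold change of -0.97 (SE 0.28, adjusted p = 0.0021) lay just inside the fold threshold, and it was past it without D1 replicate 3 (-1.01), without P replicate 3 (-1.06) and with quantile-normalised counts (-1.48). Neither knockdown passed the test for Hey1 (adjusted p = 0.49 in RBPMS KD1 and 0.50 in MBNL KD), although the MBNL KD libraries all lay below D1 and passed with limma on the normalised values (-0.26, adjusted p = 0.030; over all alternatives the adjusted p ran from 0.030 to 1).

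**Figure D3:**
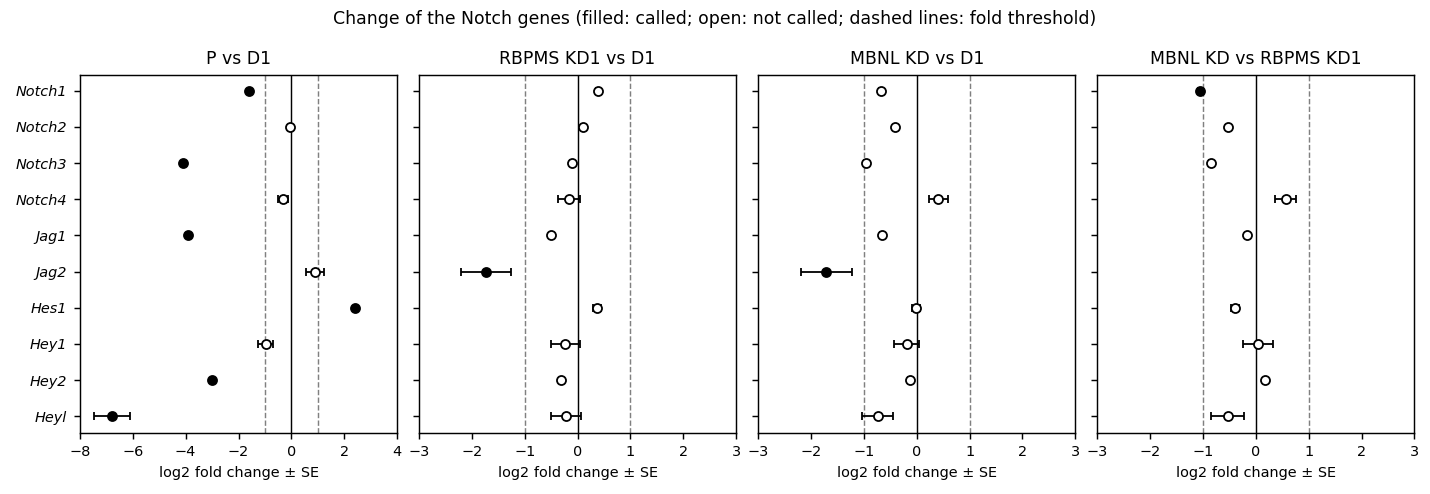
Log2 fold change with SE of the 10 genes in 4 comparisons of 3 libraries against 3; filled points were called, dashed lines mark the fold threshold of 1, and the P panel has a wider scale. Bars shorter than the points are hidden, Jag2 was not tested between the knockdowns, and the Heyl value in P rests on 1 count.

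**Figure D4:**
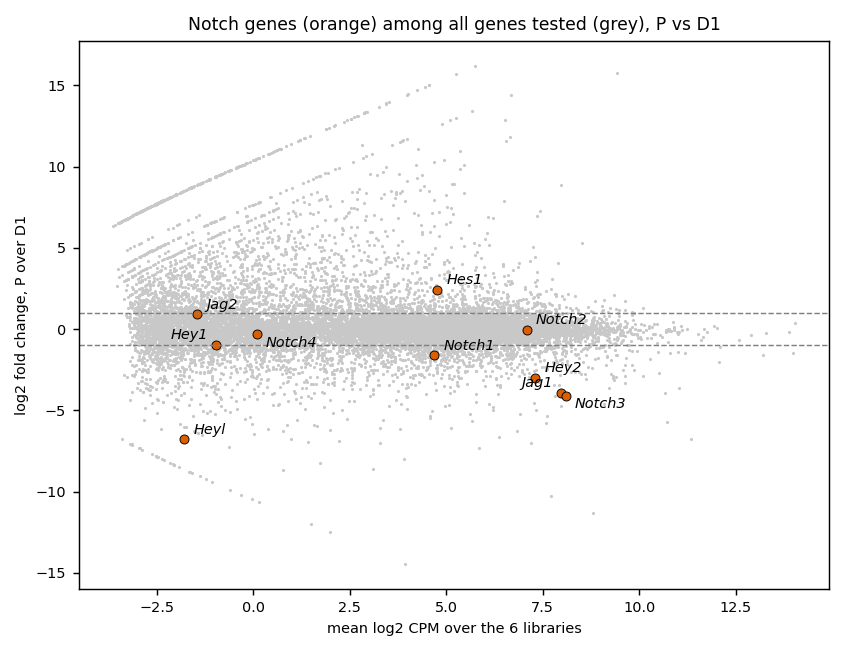
Log2 fold change of P over D1 against mean log2 CPM for all 16814 genes tested (grey), with the Notch genes in orange. Notch3, Jag1, Hey2 and Heyl lie below -2.9, Hes1 lies at 2.42, and Notch2 lies at -0.04.

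P was also compared with each knockdown. Against RBPMS KD1, 7 of the 10 genes were called in P, 2 higher and 5 lower, with 29.1% of all genes called (16.1% higher and 13% lower). Against MBNL KD, 6 were called, 2 higher and 4 lower, with 32.9% of all genes called (17.9% higher and 15% lower). Notch3, Jag1, Hey2 and Heyl were called lower and Hes1 and Jag2 higher in both, Jag2 having passed the filter through its P counts alone. With limma on the normalised values of the authors, Jag2 was no longer called in either (log2 fold changes 0.70 and 0.72, from 2.62 and 2.59), and Heyl was no longer called against MBNL KD (-0.84). Both genes have few counts, and the floor of 35 in those values shrinks their fold changes. Notch1 was called lower in P than in RBPMS KD1 (log2 fold change -2.01, SE 0.046, adjusted p = 1e-28) and lay just inside the threshold against MBNL KD (-0.95, SE 0.053, adjusted p = 1.4e-16), where limma on the normalised values called it (-1.01). Notch2, level between P and D1, was 1.27-fold higher in P than in MBNL KD (adjusted p = 6.9e-13). Quantile-normalised counts called Hey1 lower against RBPMS KD1 (-1.14) and MBNL KD (-1.07), and Notch4 lower against MBNL KD (-1.002). Against RBPMS KD1, Hey1 was also called without RBPMS KD1 replicate 1 (-1.04), but without RBPMS KD1 replicate 3 it did not pass (-0.50, edgeR adjusted p = 0.21).

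Of 48 other genes of the pathway, 42 were tested in P against D1, and 6 were called higher and 4 lower, 23.8% of those tested against 27.6% of all genes. At the adjusted p alone 19 were higher and 19 lower, 90.5% against 77.9% of all genes. The median log2 fold change of the 42 was 0.04, against 0.02 for all genes. Called genes of the ligand list were Dll4, Dlk2 and Dner, all higher in P. They passed the filter through the P libraries alone, so that they could be tested only because they were higher there. Their number is no result about the list or about the 6 higher calls and the 23.8%, which include them. The Notch ligand Dll4 had 0, 2 and 1 counts in D1 and 10, 18 and 13 in P (adjusted p = 8.5e-05). Dlk2 had 9, 2 and 2 counts in D1 and 88, 58 and 73 in P (adjusted p = 5e-10), and Dner had 2, 8 and 2 in D1 and 148, 182 and 126 in P (adjusted p = 9.8e-15); both encode non-canonical ligands. All 3 overlap another annotated gene, and the Dner counts were even in all 12 libraries.

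The glycosylation and endocytosis list had 1 of 7 tested genes called higher and 2 called lower in P; of all genes, 16.4% were called higher and 11.2% lower, which is the background for each list here. Lfng, a fringe enzyme that adds sugars to Notch receptors, rose from 935, 998 and 922 scaled counts in D1 to 5003, 5276 and 5257 in P (log2 fold change 2.44, SE 0.043, adjusted p = 1.2e-31). Poglut1, which adds O-glucose to Notch, fell (log2 fold change -1.06, adjusted p = 1.4e-25), as did Neurl1, a ubiquitin ligase for Notch ligands (-1.45, adjusted p = 5e-05). Of the 9 cleavage genes 7 were higher and 2 lower at the adjusted p, which 40.4% and 37.6% of all genes also passed in these directions, and 1 was called, the presenilin gene Psen2, which was lower (log2 fold change -1.29, adjusted p = 4.5e-22). In the nuclear list 1 of 10 was called: Maml3, a Mastermind coactivator, rose from 185, 206 and 167 to 1646, 1623 and 1596 scaled counts (log2 fold change 3.12, SE 0.075, adjusted p = 1.2e-27), and it overlaps a long non-coding RNA. Rbpj itself fell without reaching the fold threshold (log2 fold change -0.80, adjusted p = 2.3e-23). The list of negative regulators had 7 of 9 tested genes lower and 2 higher at the adjusted p, beside the same shares of all genes, with 1 called, Dtx4 of the Deltex family (log2 fold change 1.32, adjusted p = 4.1e-26). Of 3 other Hes genes tested 1 was called, Hes7, which was lower (-1.11, adjusted p = 0.0016). Dtx4 overlaps a pseudogene, and Hes7 a long non-coding RNA and a tRNA gene.

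In RBPMS KD1, 0 of the 38 other pathway genes tested were called by edgeR and 0 by DESeq2 or limma, against a background of 4.68% of all genes, so that a count of 0 is near the background. At the adjusted p 13 were higher and 15 lower, 73.7% of those tested against 59.1% of all genes, and 30 had an unadjusted p under 0.05, 78.9% against 62.5% of all genes. Without D1 replicate 1, 1 gene was called, the Delta-like ligand gene Dll1 (log2 fold change 1.26, adjusted p = 5e-04), named after its values were seen. Nrarp, named after its values were seen, encodes a Notch-induced inhibitor of the receptor's intracellular domain. It rose from 2139, 1982 and 2112 scaled counts in D1 to 3207, 3347 and 3222 (log2 fold change 0.65, SE 0.041, adjusted p = 7.3e-14), and in both P (-0.51, adjusted p = 3.9e-11) and MBNL KD (-0.28, adjusted p = 5.9e-06) it was lower than in D1.

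In MBNL KD, 2 of 9 cleavage genes (Adam10 and Ncstn), 1 of 10 nuclear genes (Rbpj) and 1 of 7 glycosylation and endocytosis genes (Neurl1) were called lower, and 1 ligand gene, Dner, was called higher. Together these are 5 of 39 pathway genes tested, 12.8% against 10.2% of all genes, and with limma on the normalised values 3 were called. At the adjusted p 13 were higher and 21 lower, 87.2% against 67.5% of all genes. Adam10, the protease that makes the extracellular cut in ligand-bound receptors, had 13792, 14169 and 13631 scaled counts in D1 and 3181, 3221 and 3033 in MBNL KD (log2 fold change -2.14, SE 0.028, adjusted p = 7.6e-31). Ncstn, the gamma-secretase subunit nicastrin, went from 17527, 17252 and 16886 to 6747, 6538 and 6510 scaled counts (log2 fold change -1.38, SE 0.024, adjusted p = 3.9e-28). Each lay far below every D1 library, while in P both were higher than in D1, with log2 fold changes of 0.27 and 0.25. Rbpj, the DNA-binding partner of all 4 receptors, fell from 13827, 13177 and 13541 to 6073, 5943 and 6107 scaled counts (log2 fold change -1.16, SE 0.025, adjusted p = 7.6e-26). Compared with RBPMS KD1, 4 of the 39 pathway genes tested were called lower in MBNL KD and 1 higher, 12.8% against 11.9% of all genes, and 3 were called with limma on the normalised values or in a test against a log2 fold change of 1. Neurl1 was lower in MBNL KD as well (-1.19, adjusted p = 7e-04), with 21, 24 and 29 counts against 50, 53 and 67 in D1. Dner was higher, with 22, 36 and 28 counts against 2, 8 and 2 in D1 (log2 fold change 2.81, SE 0.52, adjusted p = 2.3e-05). It passed the filter through the MBNL KD libraries alone, so that it could be tested only because it was higher there. The share of 12.8% in each of these comparisons includes it. The median log2 fold change over the 39 genes was -0.11, against 0.0099 for all genes.

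**Figure D5:**
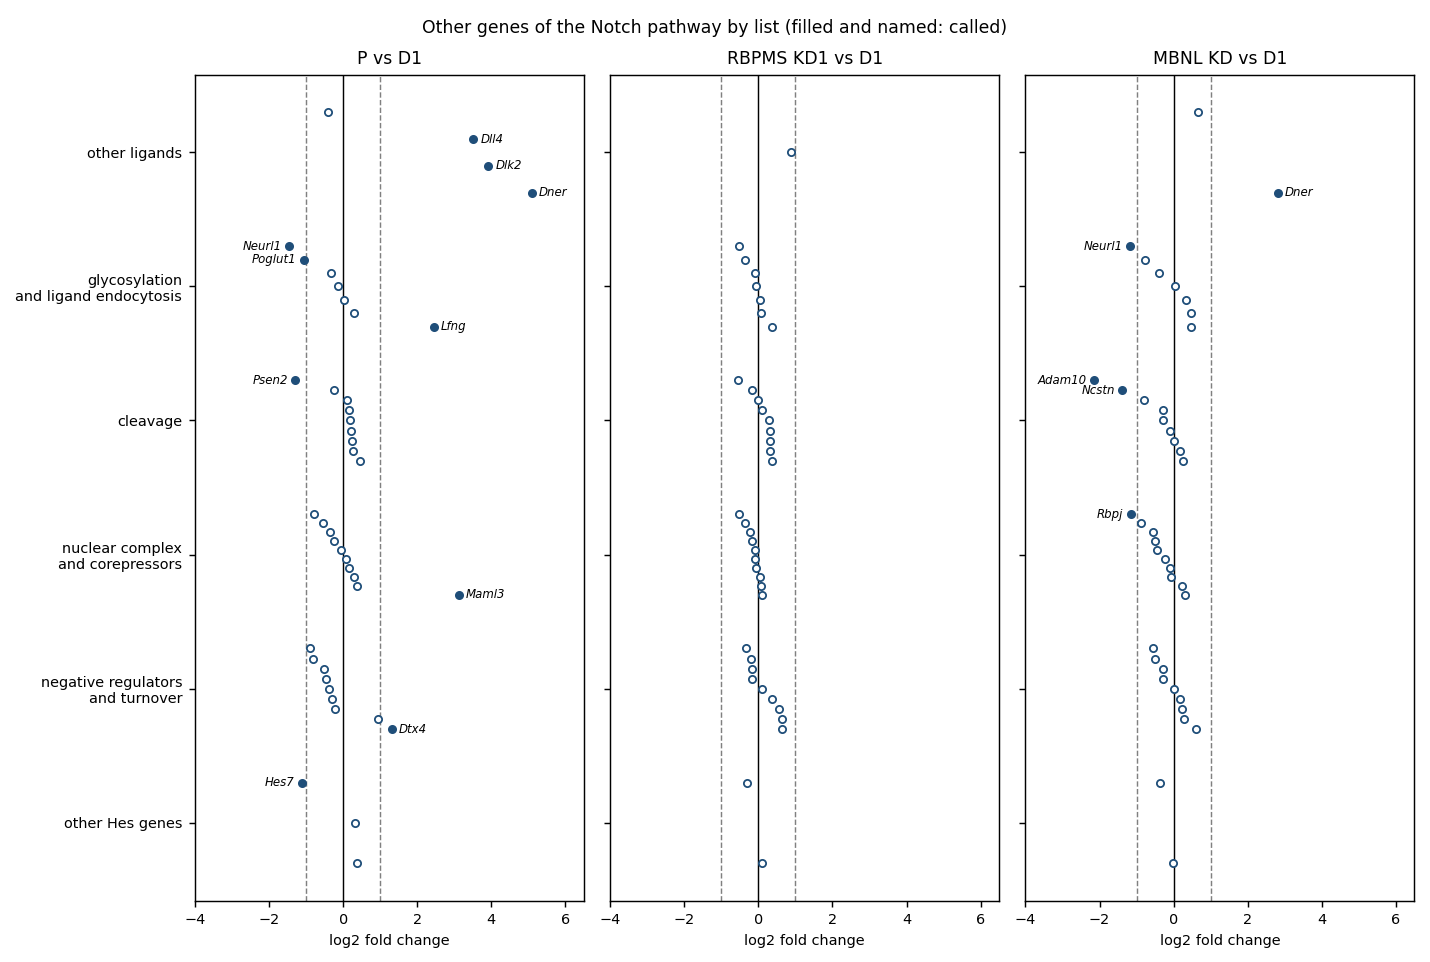
Log2 fold change of the other Notch pathway genes tested in each comparison with D1, by list; filled points are called and named, and dashed lines mark the fold threshold. The P panel holds 10 called genes, the RBPMS KD1 panel 0 and the MBNL KD panel 5.

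Markers of other cell types were measured beside these genes. Over 6 endothelial markers, the summed level was 114 to 124 scaled counts in D1, 1228 to 1258 in P, 150 to 166 in RBPMS KD1 and 206 to 232 in MBNL KD. The sum in P was carried by 3 of the 6: Erg (802 scaled counts in P and 90.4 in D1), Tek (315 and 23.9) and Cdh5. Pecam1 (5.05 and 4.09) and Kdr (1.90 and 0) stayed near the limit of detection. The endothelial cadherin Cdh5 had 126, 138 and 122 counts in P and 0 in each library of the other groups, while Emcn was at 0 everywhere. Summed markers of fibroblasts, mostly Lum, were 12913 to 13867 scaled counts in D1, 16557 to 17355 in P, 8144 to 8712 in MBNL KD and 11338 to 12023 in RBPMS KD1. The 3 genes of that list did not move together: in P, Pdgfra was at 82.0% and Dcn at 166% of the D1 mean, and in RBPMS KD1 Lum was at 76.8%, Pdgfra at 188% and Dcn at 163%. Blood cell markers stayed at 75.5 to 132 scaled counts in all groups, and neural markers at 157 to 322. The part of these shifts, and of the shifts in smooth muscle markers given above, in the Notch values was not tested.

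The genes with the level pattern most like each called Notch gene were ranked by Pearson's r of log2(CPM + 1) over the 12 libraries, among 12640 genes. The ranking is a description that rests mostly on 4 group means. For Notch1 they were Tspan17 (r = 0.998) and Spsb1 (r = 0.997), both highest in RBPMS KD1 and lowest in P, as Notch1 was. For Notch3 they were Il4r and Bace1 (each r = 0.999), and for Jag1 they were Akap5 and Tbxa2r (each r = 0.999). Fhl1 and Osbpl1a lay nearest to Hey2, with Fhl1 at 335370 scaled counts in D1 and 27240 in P. Enpp3 and Top3b lay nearest to Hes1 (each r = 0.997), and Mnda (r = 0.981) and Hnrnph1 (r = 0.979) to Heyl. For Jag2, with its few counts, Mad2l1 (r = 0.981) and Adh5 (r = 0.961) came first. Many genes share these patterns: between 13 genes for Jag2 and 956 for Hes1 had r above 0.95.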

How the data were processed

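The labels describe poly(A) libraries made with a directional kit. The counts are whole reads per gene as the authors deposited them: reads subsampled with seqtk, aligned with STAR 2.7.11b to mRatBN7.2 and counted with featureCounts on RefSeq genes. The strand setting and the counting of mates are not given in the sources used here. Library totals exceed the read depth that the study's methods give after subsampling, so 1 count may not be 1 fragment. The authors also deposited a normalised signal table, made with noisyR and quantile normalization, which was used for 1 alternative. In it a count of 0 stands at 35 (Heyl in P), a floor that shrinks the fold changes of genes with few counts. Columns were matched to samples by library name, and 0 columns were left unused.

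Counts were tested in R 4.3.3 with edgeR 4.0.16 (filterByExpr, TMM, quasi-likelihood F test) on the 6 libraries of each of 6 comparisons, with Benjamini-Hochberg adjustment over all genes tested. A call needs both an adjusted p below 0.05 and a log2 fold change beyond 1 in size. SE is the log2 fold change over the square root of F. An exact permutation test of 3 against 3 cannot go below 0.1 and was not used. Intervals cover counting error only, with each count taken as independent. Alternatives used limma 3.58.1 and DESeq2 1.42.0, other scalings and filters, halved counts, a replicate block, and leaving out each library. A test against a log2 fold change of 1 was another. The count of called pathway genes under these alternatives was added after the data had been seen. The edgeR and DESeq2 procedures were tested on simulated data.

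All 10 members are named, with the siRNA targets, the called genes of 6 fixed pathway lists (48 genes) and, for each called member, the 2 genes of highest correlation with a mean of at least 100 scaled counts. The members and lists were chosen with earlier results of these data known. Promoter windows come from RefSeq on GRCr8, another assembly than that of the counts, and were read with Python 3.11.15. Authors' comparison columns were not present in the files used.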

Additional observations from a re-analysis of the deposited data

Results flagged for a closer look

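In 2 receptor genes the knockdowns moved in opposite directions from D1, and the direct comparison of MBNL KD with RBPMS KD1 passed the test. At the adjusted p, 59.1% of all genes passed in RBPMS KD1, 67.5% in MBNL KD and 69.5% between the knockdowns. How many of all genes moved in opposite directions was not counted. For Notch1 the log2 fold change of MBNL KD over RBPMS KD1 was -1.06 (SE 0.039, edgeR adjusted p = 1.6e-20), with 3 of 3 RBPMS KD1 libraries above and 3 of 3 MBNL KD libraries below all D1 libraries. For Notch2 it was -0.53 (SE 0.026, edgeR adjusted p = 2.4e-17), again with 3 of 3 libraries on each side of D1.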

How the results depend on the processing

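Of 994 member values recomputed under other settings, 968 kept their direction and side of the calling thresholds, 9 lost a call, 9 gained one and 8 changed sign, all 8 for values that had not passed the test. These were Hey1 between the knockdowns (-0.059 with quantile-normalised counts, -0.012 with limma on the authors' normalised values) and values with 1 library left out: Notch4 in RBPMS KD1 (-0.31 to 0.056, positive without RBPMS KD1 replicate 3), Hey1 in RBPMS KD1 (-0.48 to 0.053, positive without RBPMS KD1 replicate 1), Hes1 in MBNL KD (-0.059 to 0.055, positive without MBNL KD replicate 3 or D1 replicate 3) and Hey1 between the knockdowns (-0.26 to 0.27, negative without RBPMS KD1 replicate 1 or MBNL KD replicate 2). The 6 calls in P against D1 held with each library left out, where 6 to 7 of the 10 genes were called. At the adjusted p alone, leaving aside the stricter tests, 28 values lost and 5 gained their side of 0.05, all of them for Notch3 (RBPMS KD1 against D1), Hey2 (MBNL KD against D1) or the low-count genes Notch4, Jag2, Hey1 and Heyl.

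The single call in RBPMS KD1 and the single call in MBNL KD, both Jag2, became 0 with a minimum of 10 counts in every library, with halved counts, with limma on the authors' normalised values and in a test against a log2 fold change of 1. Under the first and second of these Jag2 was not among the genes tested. The single call between the knockdowns, Notch1, became 0 under limma and under that fold test. Over all genes, the calls in P against D1 went from 4641 to 2933 and those against RBPMS KD1 from 4914 to 3154 with the minimum of 10 counts, which tests fewer genes. With limma and with the fold test the calls went from 745 to 209 and 167 in RBPMS KD1. They went from 1643 to 784 and 847 in MBNL KD, and from 1920 to 1050 and 973 between the knockdowns. The fold test is stricter by construction. The normalised values used for limma have a floor of 35 at a count of 0, which shrinks the fold changes of genes with few counts. The part of this floor in the fall of calls over all genes was not tested. Quantile scaling moved the share of calls that were higher from 59.4% to 45.8% in P, from 65.4% to 54.3% in RBPMS KD1, from 59.6% to 50.6% in MBNL KD, from 55.4% to 45% in P against RBPMS KD1, from 54.3% to 47.5% in P against MBNL KD and from 49.4% to 45.2% between the knockdowns; the median of all genes moved by at most 0.089 on the log2 scale.

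Same-numbered libraries did not deviate together: their correlations averaged -0.018 to 0.029 over the 6 comparisons, so the numbers were not used as pairs. With the replicate block the calls were 4593 in P, 730 in RBPMS KD1 and 1634 in MBNL KD over all genes, and 6, 1 and 1 of the Notch genes, as without it. Under it, at the adjusted p alone, Notch4 in MBNL KD (adjusted p = 0.053) and Hey1 in P against RBPMS KD1 (adjusted p = 0.051) no longer passed. The few counts of Jag2, Hey1, Heyl and Notch4 limit what can be seen of them at this depth.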
